A study of Homo sapiens with 18 samples.

Results

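The S phase and DNA replication genes are a named set of 36 genes, picked by symbol from the 17026 endogenous genes of the deposited table, and all 36 passed the filter on low values with the 15354 genes tested. They comprise 10 genes of helicase loading, 6 of helicase activation, 11 of synthesis at the fork, 3 of nucleotide supply, 4 of S phase entry and 2 of chromatin at the fork. RNA was sequenced from BxPC-3, MiaPaCa-2 and PANC-1, 3 established human lines of pancreatic ductal adenocarcinoma. Each line was kept for 6 h with THZ1 at 100 nM or with DMSO alone, in wells of the same F12 medium with serum, β-glycerophosphate and ascorbic acid. There were 3 libraries of polyadenylated RNA in each of the 6 groups, BxPC-3, MiaPaCa-2 and PANC-1 with THZ1 and the same lines with DMSO, 18 libraries in all. The labels call the triplicates biological, and each line is 1 cell line. For each gene the p-values below rest on 1 estimate of the spread between cultures, shared by all 6 groups. They do not measure the spread of 1 line alone, and do not reach beyond these 3 lines. THZ1 is a covalent inhibitor of CDK7 that also acts on CDK12 and CDK13, kinases of the RNA polymerase II tail, and CDK7 also activates the cyclin-dependent kinases that drive the cell cycle.

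Replication origins are licensed when ORC, CDC6 and CDT1 load the ring of MCM2 to MCM7 onto DNA, and the ring becomes an active helicase when CDC45 and the GINS complex join it with the help of MCM10. At the fork the POLA1 and POLA2 polymerase starts each strand, the RFC clamp loader closes the PCNA ring around DNA, POLE copies the leading strand, and FEN1 and LIG1 finish and seal the lagging strand. Many of these genes are targets of the E2F transcription factors, which cyclin E kinase releases from RB1 as cells enter S phase.

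Values are on the deposited scale, reads divided by a number of the authors' for each library, multiplied here by 1 constant so that the mean library sums to 1e+06. Libraries held 6352482 to 20910423 reads, and a member had 30 (CCNE2) to 10783 (MCM7) reads in a library. PANC-1 DMSO replicate 1 was the shallowest library and stood apart from the other PANC-1 DMSO libraries, so counts in PANC-1 are also given without it. A number in square brackets beside a PANC-1 fold change is limma's log2 fold change without it. ERCC transcripts, RNAs of known sequence added to the extracted RNA, summed on this scale to 5322 ± 390 with THZ1 and 2330 ± 198 with DMSO in BxPC-3, to 4442 ± 832 and 1792 ± 114 in MiaPaCa-2, and to 2710 ± 461 and 2217 ± 323 in PANC-1 (SD, n = 3 each). The epithelial keratins KRT8 and KRT18 were abundant in all 6 groups. Of the collagen genes taken as fibroblast markers, COL1A1 averaged 13.9 with THZ1 and 9.51 with DMSO in BxPC-3. It averaged 2.06 and 0.898 in MiaPaCa-2 and 25.8 and 34.8 in PANC-1. COL1A2 averaged 0.802 and 0.310 in BxPC-3, 92.1 and 50.2 in MiaPaCa-2 and 0.202 and 1.99 in PANC-1. In PANC-1 DMSO replicate 1 COL1A2 was at 5.37. KRT7, a keratin of duct cells, averaged 3713 ± 110.4 with THZ1 and 1976 ± 76.4 with DMSO in BxPC-3, 1.95 ± 0.406 with THZ1 and 0.915 ± 0.146 with DMSO in MiaPaCa-2 and 3.73 ± 0.525 with THZ1 and 4.20 ± 2.66 with DMSO in PANC-1. KRT19, another duct keratin, averaged 1969.7 ± 51.0 with THZ1 and 1469 ± 95.9 with DMSO in BxPC-3, 79.5 ± 6.01 with THZ1 and 60.7 ± 5.08 with DMSO in MiaPaCa-2 and 815 ± 103 with THZ1 and 828 ± 134 with DMSO in PANC-1. CDH1, the epithelial cadherin, averaged 611 ± 12.5 with THZ1 and 298 ± 13.6 with DMSO in BxPC-3, 0.161 ± 0.0636 with THZ1 and 0.179 ± 0.053 with DMSO in MiaPaCa-2 and 2.98 ± 0.338 with THZ1 and 3.31 ± 1.48 with DMSO in PANC-1. VIM, the filament of mesenchymal cells, averaged 27.7 ± 0.907 with THZ1 and 12.3 ± 0.595 with DMSO in BxPC-3, 2413 ± 82.3 with THZ1 and 1413 ± 55.1 with DMSO in MiaPaCa-2 and 1471 ± 131 with THZ1 and 1372 ± 212 with DMSO in PANC-1 (SD, n = 3 each).

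In BxPC-3 and MiaPaCa-2 the replication genes went both ways under THZ1 on the deposited scale, as did all genes tested, and genes of the GINS complex and of polymerase alpha were called in opposite directions. On the deposited scale MCM2, MCM4, MCM5, MCM6, MCM7, CDC45, GINS2, PCNA, RFC2, POLA1, POLE, LIG1, RRM1, RRM2 and TYMS rose in both lines, while GINS1, GINS3, POLA2, CHAF1A and E2F2 fell in both; on the ERCC scale the 15 were below 0 as well. Of the 36 genes, limma called 17 higher and 10 lower in BxPC-3, where it called 40% of all genes tested higher and 18.9% lower. It called 17 higher and 8 lower in MiaPaCa-2, where 36.5% of all genes were called higher and 19.8% lower. In PANC-1 it called 1 member, GINS3, lower, where 0.274% of all genes were called higher and 0.228% lower. The median log2 fold change of the 36 was 0.23 in BxPC-3, 0.28 in MiaPaCa-2 and 0.08 in PANC-1, against 0.25, 0.19 and -0.07 over all genes tested. In bulk RNA fewer cells in S phase and less RNA per cell cannot be told apart.

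**Figure D1:**
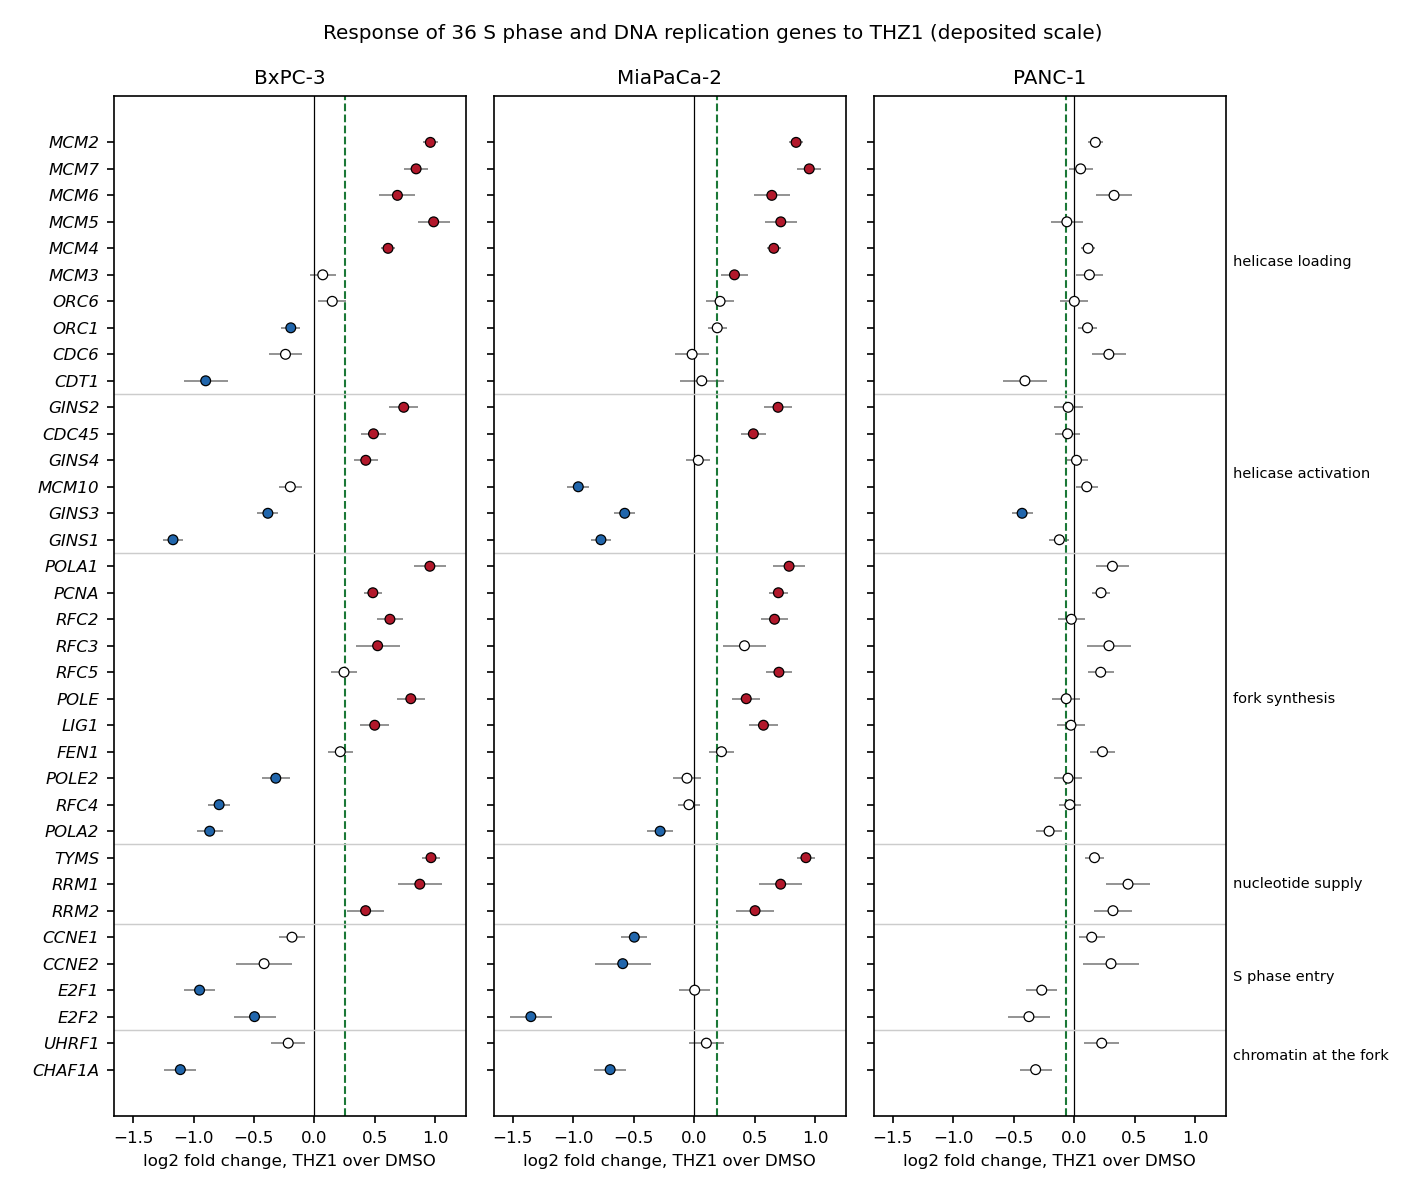
Log2 fold change, THZ1 over DMSO, of the 36 genes in each line on the deposited scale, with bars of 1 SE; filled points passed limma at an adjusted p under 0.05 (red higher, blue lower), and the dashed line is the median over all genes tested. In BxPC-3 and MiaPaCa-2 the genes spread from -1.17 to 0.99 and from -1.35 to 0.95, with subunits of GINS and polymerase alpha called on opposite sides in both lines and of RFC in BxPC-3; in PANC-1 they lie between -0.43 and 0.45. On the ERCC scale all 36 points of BxPC-3 and of MiaPaCa-2 lie below 0.

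In BxPC-3 and MiaPaCa-2 the falls were called on all 4 scales compared, and the rises were not. The median over all genes was lower in both lines on each of the other scales than on the deposited scale. Falls were thus favoured over rises in advance, and this contrast lends the falls no support of its own. All 10 genes called lower in BxPC-3 (CDT1, CHAF1A, E2F1, E2F2, GINS1, GINS3, ORC1, POLA2, POLE2 and RFC4) and all 8 in MiaPaCa-2 (CCNE1, CCNE2, CHAF1A, E2F2, GINS1, GINS3, MCM10 and POLA2) were also called lower with TMM factors, with equal library sums and with libraries scaled to their ERCC reads. Of the genes called higher, 8 in BxPC-3 and 13 in MiaPaCa-2 were called higher with TMM factors, where 15 and 9 members were called lower and 22.4% and 24.8% of all genes were called higher, 29.9% and 26.6% lower. With equal sums 2 members were called higher in each line, MCM2 and MCM5 in BxPC-3 and MCM7 and TYMS in MiaPaCa-2, against 9.21% and 9.35% of all genes. There 22 and 19 members were called lower, against 43% and 43.1% of all genes. With ERCC scaling no member was called higher and 30 were called lower in BxPC-3, 33 in MiaPaCa-2 and 6 in PANC-1, against 59.1%, 73.9% and 18.4% of all genes called lower and 1.28%, 1.36% and 0.0323% called higher.

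Of the calls on the deposited scale in BxPC-3 and MiaPaCa-2, 8 were lost when some single library was left out, with adjusted p by limma up to 0.195 for ORC1 in BxPC-3, 0.193 for CCNE2 in MiaPaCa-2, and 0.122 for POLE2 in BxPC-3. It reached 0.116 for POLA2 in MiaPaCa-2, 0.0644 for RRM2 in BxPC-3, 0.0628 for E2F2 in BxPC-3, 0.0617 for RFC3 in BxPC-3 and 0.0504 for MCM3 in MiaPaCa-2. PANC-1 DMSO replicate 1 enters the shared estimate of the spread. Without it limma called 20 members higher and 14 lower in BxPC-3, against 49.8% and 24% of all genes. In MiaPaCa-2 it then called 21 and 8, against 46.6% and 25.4%. A gene not called in these lines with all libraries may thus be called without that library.

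The scale moves every gene of a line together, so it is best read against the median of all genes. That median was 0.25 in BxPC-3, 0.19 in MiaPaCa-2 and -0.07 in PANC-1 on the deposited scale, -0.04, -0.0012 and 0.01 with TMM factors, -0.30, -0.31 and -0.07 with equal sums and -0.64, -0.85 and -0.31 on the ERCC scale. The median of the 36 on the ERCC scale was -0.95, -1.003 and -0.20. The distance from the highest to the lowest member stayed between 2.14 and 2.16 log2 units in BxPC-3 and between 2.24 and 2.30 in MiaPaCa-2 on the 4 scales, and between 0.85 and 0.89 in PANC-1. As a share of endogenous reads, which does not use the authors' divisors, the 36 genes made up 0.355% ± 0.00451 with THZ1 and 0.434% ± 0.00225 with DMSO in BxPC-3, and 0.434% ± 0.00159 with THZ1 and 0.481% ± 0.00388 with DMSO in MiaPaCa-2. A share of reads follows the scale of equal sums, where the median of all genes was -0.30 and -0.31 in these lines. A lower share is thus not by itself particular to the set. In PANC-1 the share was 0.380% ± 0.00566 with THZ1 and 0.362% ± 0.0538 with DMSO (SD, n = 3 each), with PANC-1 DMSO replicate 1 at 0.300% and the other DMSO libraries at 0.397% and 0.389%.

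**Figure D2:**
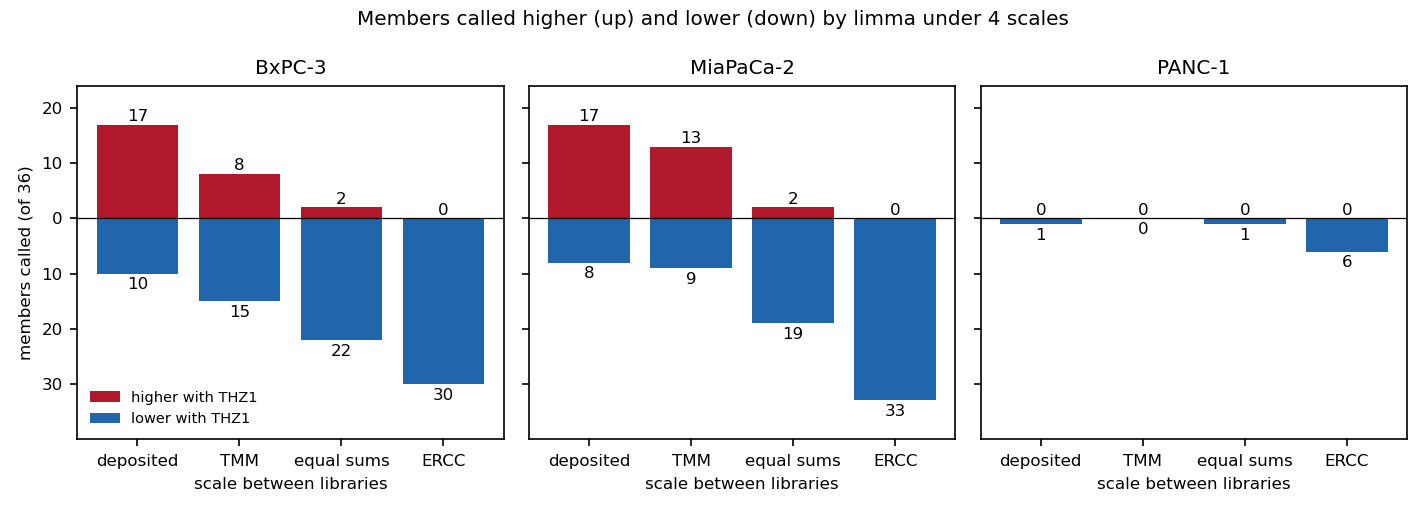
Number of the 36 genes called higher (red, upward) and lower (blue, downward) by limma with THZ1 in each line, when libraries are compared on the deposited scale, with TMM factors, with equal sums or by their ERCC reads. From left to right the rises go from 17 to 0 in BxPC-3 and in MiaPaCa-2, while the falls grow to 30 and 33 genes.

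The ring of MCM2 to MCM7 is the motor of the replicative helicase, and its genes lay above the median of all genes in BxPC-3 and MiaPaCa-2, other than MCM3, which lay below it in BxPC-3 on all 4 scales and in MiaPaCa-2 with equal sums and on the ERCC scale. On the deposited scale 5 of the 6 were called higher in BxPC-3 and 6 in MiaPaCa-2; with TMM factors 3 and 4 were; on the ERCC scale all 6 were below 0 in both lines, between -1.11 and -0.20 in BxPC-3 and between -0.96 and -0.34 in MiaPaCa-2. MCM2 stood at 399, 416 and 421 with THZ1, against 205, 214 and 215 with DMSO in BxPC-3. In MiaPaCa-2, MCM2 stood at 491, 469 and 473 with THZ1, against 273, 263 and 263 with DMSO, and in PANC-1 at 189, 177 and 179.6 with THZ1, against 158, 168 and 157 with DMSO. The THZ1 libraries lay above the DMSO libraries in all 3 lines, by a narrow margin in PANC-1. The log2 fold changes of MCM2 by limma were 0.96 ± 0.06 in BxPC-3 (adjusted p = 2.04e-09), 0.84 ± 0.06 in MiaPaCa-2 (adjusted p = 1.42e-08) and 0.18 ± 0.06 [0.16] in PANC-1 (adjusted p = 0.138), here and below ± SE. In limma's test of the difference the response was -0.78 ± 0.09 (adjusted p = 4.9e-06) for PANC-1 minus BxPC-3 and -0.67 ± 0.09 (adjusted p = 3.57e-05) for PANC-1 minus MiaPaCa-2; on the ERCC scale these were 0.12 and 0.34.

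MCM7 had the most reads that any member had in a library. In PANC-1 RRM2 stood above it in every library other than DMSO replicate 1. The values of MCM7 were 789, 794 and 817 with THZ1, against 423, 445 and 469.8 with DMSO in BxPC-3. In MiaPaCa-2, MCM7 gave 868, 795 and 813 with THZ1, against 436, 419 and 422 with DMSO. In PANC-1, MCM7 gave 401, 337 and 389 with THZ1, against 432, 348 and 313 with DMSO. The groups were apart in BxPC-3 and MiaPaCa-2 and overlapped in PANC-1, where the highest value was DMSO replicate 1. Limma's log2 fold changes for MCM7 were 0.84 ± 0.10 in BxPC-3 (adjusted p = 1.96e-06), 0.95 ± 0.10 in MiaPaCa-2 (adjusted p = 6.77e-07) and 0.05 ± 0.10 [0.18] in PANC-1 (adjusted p = 0.741).

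MCM5, next to MCM2 in the ring, stood at 281, 295 and 284 with THZ1, against 142, 141 and 149.7 with DMSO in BxPC-3. In MiaPaCa-2, MCM5 stood at 238, 218 and 225 with THZ1, against 145, 135 and 133 with DMSO. In PANC-1, MCM5 stood at 163, 135 and 146 with THZ1, against 209, 139.6 and 125 with DMSO. Its THZ1 libraries in BxPC-3 were near 2 times the DMSO libraries, the highest fold change of the set in that line. For MCM5 limma gave 0.99 ± 0.13 in BxPC-3 (adjusted p = 9.13e-06), 0.72 ± 0.13 in MiaPaCa-2 (adjusted p = 0.00025) and -0.06 ± 0.13 [0.16] in PANC-1 (adjusted p = 0.785). MCM4, whose mouse mutants show genome instability, measured 511, 504 and 517 with THZ1, against 348, 332 and 324 with DMSO in BxPC-3. In MiaPaCa-2, MCM4 measured 591, 631 and 604 with THZ1, against 387, 374 and 394 with DMSO. In PANC-1, MCM4 measured 239.8, 231 and 234 with THZ1, against 208, 224 and 217 with DMSO. No THZ1 library of MCM4 overlapped a DMSO library of its line, and limma gave 0.61 ± 0.06 in BxPC-3 (adjusted p = 2.8e-07), 0.66 ± 0.06 in MiaPaCa-2 (adjusted p = 1.75e-07) and 0.12 ± 0.06 [0.09] in PANC-1 (adjusted p = 0.258).

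MCM6 and MCM3 complete the ring, and MCM3 had the lowest fold change of the ring in BxPC-3 and MiaPaCa-2. MCM6 averaged 104 ± 5.72 with THZ1 and 64.3 ± 0.552 with DMSO in BxPC-3. In MiaPaCa-2 it averaged 239 ± 2.59 with THZ1 and 153 ± 4.74 with DMSO, and in PANC-1 90.2 ± 4.49 with THZ1 and 73.9 ± 21.8 with DMSO (SD, n = 3 each). MCM6 rose on the deposited scale in BxPC-3 (log2 0.69 ± 0.15 (adjusted p = 0.000867), limma) and MiaPaCa-2 (0.64 ± 0.15 (adjusted p = 0.00163)). MCM3 averaged 149 ± 7.33 with THZ1 and 142 ± 1.30 with DMSO in BxPC-3. The MiaPaCa-2 averages of MCM3 were 255 ± 1.63 with THZ1 and 202 ± 6.51 with DMSO, and in PANC-1 171 ± 7.35 with THZ1 and 159 ± 32.4 with DMSO. Limma's log2 fold changes for MCM3 were 0.07 ± 0.11 in BxPC-3 (adjusted p = 0.607), 0.33 ± 0.11 in MiaPaCa-2 (adjusted p = 0.0155) and 0.13 ± 0.11 [-0.05] in PANC-1 (adjusted p = 0.467).

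Among the factors that bring the ring to DNA, CDT1 and ORC1 fell in BxPC-3. CDT1, which carries MCM2 to MCM7 to the origin, stood at 62.5, 69.4 and 73.3 with THZ1, against 121, 131 and 132 with DMSO in BxPC-3. In MiaPaCa-2, CDT1 stood at 119, 113 and 110.5 with THZ1, against 114, 107 and 107 with DMSO. In PANC-1, CDT1 stood at 64.4, 47.8 and 58.1 with THZ1, against 115, 65.9 and 55.9 with DMSO, the highest being DMSO replicate 1. CDT1 was at a little over 0.5 of its DMSO level in BxPC-3 and overlapped its DMSO libraries in the other lines; limma gave -0.90 ± 0.18 in BxPC-3 (adjusted p = 0.000446), 0.06 ± 0.18 in MiaPaCa-2 (adjusted p = 0.797) and -0.41 ± 0.18 [-0.10] in PANC-1 (adjusted p = 0.208). The response in MiaPaCa-2 was higher than in BxPC-3 by 0.96 ± 0.26 (adjusted p = 0.0185) in limma's test of the difference, and was called higher with TMM factors and on the ERCC scale too.

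ORC1, the largest subunit of the origin recognition complex, stood at 42.9, 40.7 and 49.5 with THZ1, against 51.7, 48.6 and 52.1 with DMSO in BxPC-3. In MiaPaCa-2, ORC1 stood at 41.1, 43.5 and 39.7 with THZ1, against 36.01, 36.7 and 35.8 with DMSO. In PANC-1, ORC1 stood at 33.5, 31.4 and 31.2 with THZ1, against 29.99, 29.5 and 29.2 with DMSO. The THZ1 libraries were higher without overlap in MiaPaCa-2 and PANC-1 and overlapped in BxPC-3, where 2 of 3 THZ1 libraries were below all DMSO libraries. Limma called a fall in BxPC-3 alone (-0.19 ± 0.08 in BxPC-3 (adjusted p = 0.0438), 0.19 ± 0.08 in MiaPaCa-2 (adjusted p = 0.0508) and 0.11 ± 0.08 [0.12] in PANC-1 (adjusted p = 0.387)), and the response differed from BxPC-3 by 0.39 ± 0.11 (adjusted p = 0.0301) in MiaPaCa-2 and by 0.31 ± 0.11 (adjusted p = 0.0371) in PANC-1. CDC6, the loading ATPase, stood at 68.7, 61.4 and 66.8 with THZ1, against 76.4, 77.7 and 78.7 with DMSO in BxPC-3. In MiaPaCa-2, CDC6 stood at 82.9, 73.1 and 77.7 with THZ1, against 78.6, 75.9 and 81.9 with DMSO. In PANC-1, CDC6 stood at 76.1, 66.4 and 67.1 with THZ1, against 40.9, 67.7 and 66.7 with DMSO, the lowest being DMSO replicate 1. Limma called CDC6 in no line (-0.24 ± 0.14 in BxPC-3 (adjusted p = 0.151), -0.02 ± 0.14 in MiaPaCa-2 (adjusted p = 0.928) and 0.29 ± 0.14 [0.05] in PANC-1 (adjusted p = 0.232)), and PANC-1 minus BxPC-3 came to 0.53 ± 0.20 (adjusted p = 0.0403), or 0.29 ± 0.09 (adjusted p = 0.0115) without PANC-1 DMSO replicate 1. ORC6 averaged 51.8 ± 2.35 with THZ1 and 46.7 ± 0.0941 with DMSO in BxPC-3. In MiaPaCa-2 it averaged 66.2 ± 5.20 with THZ1 and 56.9 ± 2.64 with DMSO, and in PANC-1 24.9 ± 0.606 with THZ1 and 25.2 ± 5.25 with DMSO. Limma called ORC6 in no line (log2 0.15, 0.21 and 0.002 [-0.17]; adjusted p = 0.284, 0.127 and 0.992).

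**Figure D3:**
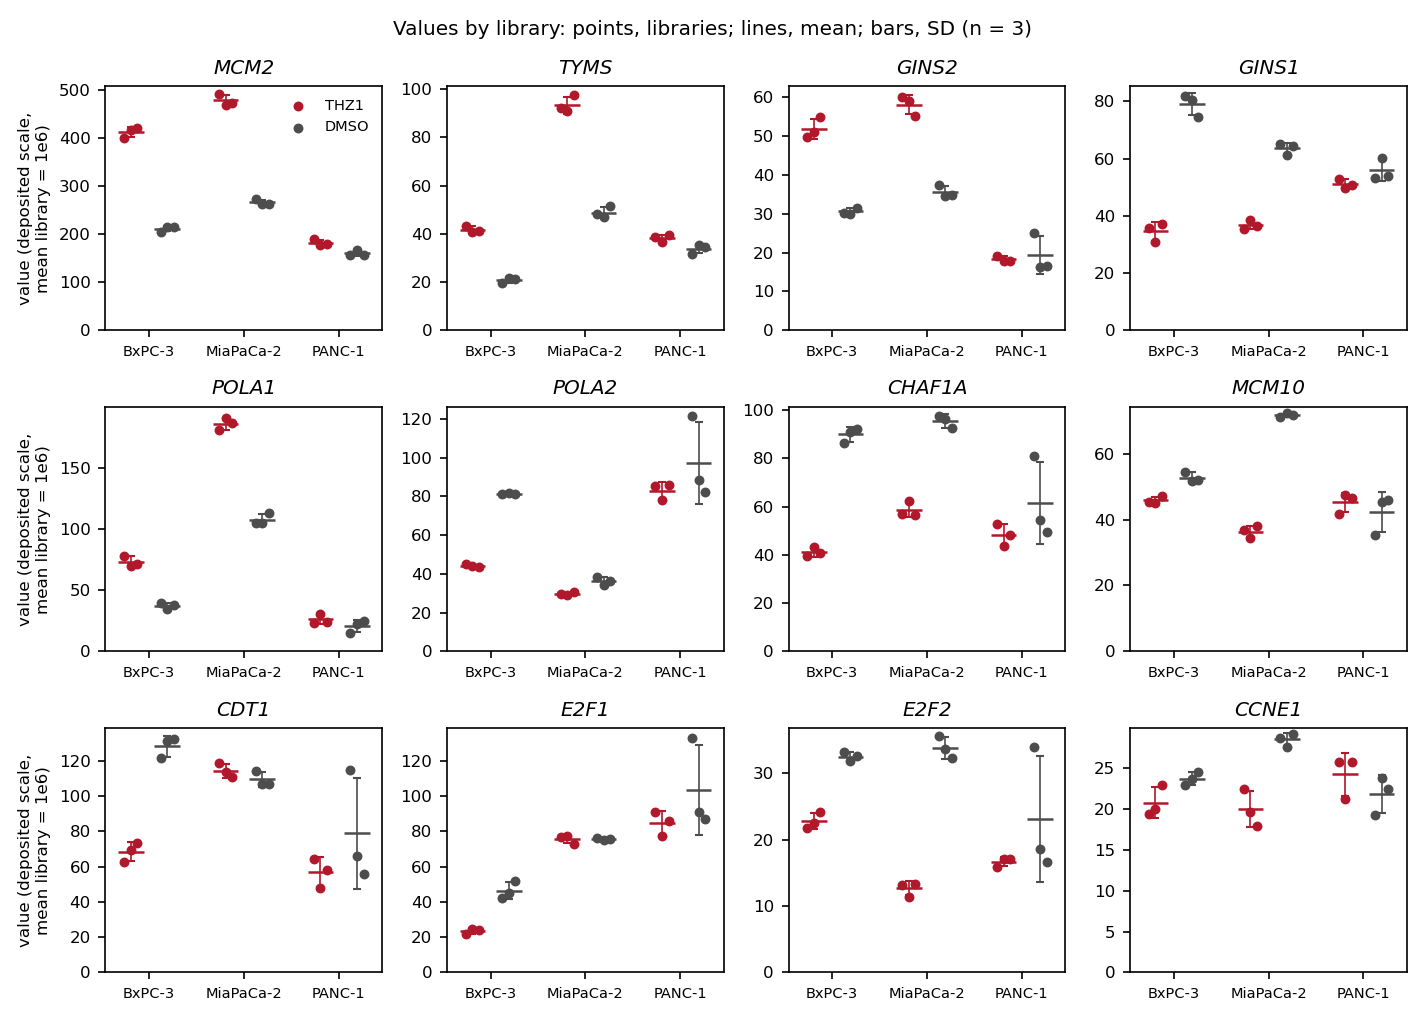
Values of 12 of the genes in every library (points), with group means (lines) and SD (bars, n = 3), THZ1 in red to the left of DMSO in grey, on the deposited scale with the mean library at 1e+06. MCM2, TYMS, GINS2 and POLA1 lie higher with THZ1 in BxPC-3 and MiaPaCa-2, GINS1, POLA2, CHAF1A and E2F2 lie lower, and CDT1 and E2F1 lie lower in BxPC-3 with overlap in MiaPaCa-2; on the ERCC scale all 12 are below 0 in both lines.

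GINS is a ring-shaped complex of 4 proteins that joins the helicase in equal amounts, and its 4 genes responded unequally. GINS1 stood at 35.67, 30.9 and 37.2 with THZ1, against 81.7, 80.5 and 74.6 with DMSO in BxPC-3. In MiaPaCa-2, GINS1 stood at 35.5, 38.5 and 36.6 with THZ1, against 65.0, 61.4 and 64.5 with DMSO. In PANC-1, GINS1 stood at 53.0, 49.7 and 50.9 with THZ1, against 53.4, 60.3 and 54.0 with DMSO. The THZ1 libraries were below the DMSO libraries in every line, by more than the groups' own spread in BxPC-3 and MiaPaCa-2 and by less than 1 unit between the nearest libraries in PANC-1. Limma's log2 fold changes of GINS1 were -1.17 ± 0.08 in BxPC-3 (adjusted p = 5.97e-09), -0.77 ± 0.08 in MiaPaCa-2 (adjusted p = 8.32e-07) and -0.12 ± 0.08 [-0.15] in PANC-1 (adjusted p = 0.36), and PANC-1 minus BxPC-3 was 1.05 ± 0.12 (adjusted p = 5.72e-06), PANC-1 minus MiaPaCa-2 0.65 ± 0.12 (adjusted p = 0.000486) and MiaPaCa-2 minus BxPC-3 0.40 ± 0.12 (adjusted p = 0.0305).

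GINS2 went the other way on the deposited scale and with TMM factors, and lay below 0 on the ERCC scale (-0.42 in BxPC-3 and -0.57 in MiaPaCa-2). It stood at 49.6, 50.8 and 54.7 with THZ1, against 30.2, 29.9 and 31.5 with DMSO in BxPC-3. In MiaPaCa-2, GINS2 stood at 59.8, 58.9 and 55.1 with THZ1, against 37.3, 34.4 and 34.7 with DMSO. In PANC-1, GINS2 stood at 19.2, 17.7 and 17.9 with THZ1, against 24.9, 16.4 and 16.6 with DMSO. Every THZ1 library was above every DMSO library in BxPC-3 and MiaPaCa-2, with overlap in PANC-1; limma gave 0.74 ± 0.12 in BxPC-3 (adjusted p = 5.73e-05), 0.69 ± 0.12 in MiaPaCa-2 (adjusted p = 0.000122) and -0.05 ± 0.12 [0.14] in PANC-1 (adjusted p = 0.802). GINS3 stood at 18.7, 21.1 and 20.3 with THZ1, against 26.3, 25.8 and 27.2 with DMSO in BxPC-3. In MiaPaCa-2, GINS3 stood at 15.2, 13.7 and 13.996 with THZ1, against 21.5, 22.3 and 21.5 with DMSO. In PANC-1, GINS3 stood at 5.41, 6.33 and 6.13 with THZ1, against 8.52, 8.07 and 8.49 with DMSO. GINS3 was lower with THZ1 without overlap in all 3 lines and is the 1 member that limma called in PANC-1 (-0.38 ± 0.09 in BxPC-3 (adjusted p = 0.00115), -0.58 ± 0.09 in MiaPaCa-2 (adjusted p = 3.26e-05) and -0.43 ± 0.09 [-0.42] in PANC-1 (adjusted p = 0.0472)). That PANC-1 call held without PANC-1 DMSO replicate 1 (-0.42 ± 0.09 (adjusted p = 0.0108)), and was lost with TMM factors and when any BxPC-3, any MiaPaCa-2 or any PANC-1 THZ1 library was left out. It was also lost with DESeq2 size factors, no filter, either edgeR fit, a replicate block or the compared groups alone. GINS4 stood at 35.8, 33.0 and 36.7 with THZ1, against 25.8, 27.1 and 24.9 with DMSO in BxPC-3. In MiaPaCa-2, GINS4 stood at 31.3, 32.9 and 33.0 with THZ1, against 34.4, 32.1 and 28.6 with DMSO. In PANC-1, GINS4 stood at 12.1, 11.3 and 14.041 with THZ1, against 12.8, 12.9 and 11.1 with DMSO. It rose in BxPC-3 on the deposited scale and overlapped elsewhere (0.43 ± 0.10 in BxPC-3 (adjusted p = 0.00141), 0.03 ± 0.10 in MiaPaCa-2 (adjusted p = 0.798) and 0.02 ± 0.10 [0.05] in PANC-1 (adjusted p = 0.911), limma), with TMM and ERCC values in BxPC-3 of 0.05 and -0.72.

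CDC45, the GINS partner on the helicase, stood at 72.4, 76.5 and 73.9 with THZ1, against 51.5, 50.7 and 55.7 with DMSO in BxPC-3. In MiaPaCa-2, CDC45 stood at 67.1, 60.9 and 68.6 with THZ1, against 46.0, 47.9 and 45.2 with DMSO. In PANC-1, CDC45 stood at 32.7, 30.9 and 36.1 with THZ1, against 41.2, 33.9 and 29.3 with DMSO. It rose in BxPC-3 and MiaPaCa-2 by like amounts on the deposited scale (0.49 ± 0.10 in BxPC-3 (adjusted p = 0.000659), 0.49 ± 0.10 in MiaPaCa-2 (adjusted p = 0.00073) and -0.05 ± 0.10 [0.07] in PANC-1 (adjusted p = 0.748), limma), and lay at -0.68 and -0.78 on the ERCC scale. MCM10, which helps to switch the loaded helicase on, stood at 45.2, 45.1 and 47.1 with THZ1, against 54.6, 51.8 and 51.8 with DMSO in BxPC-3. In MiaPaCa-2, MCM10 stood at 36.7, 34.5 and 37.9 with THZ1, against 71.0, 72.2 and 71.5 with DMSO. In PANC-1, MCM10 stood at 41.8, 47.3 and 46.5 with THZ1, against 35.2, 45.4 and 46.0 with DMSO. It was near 0.5 of its DMSO level in MiaPaCa-2 and lower by a smaller margin in BxPC-3, and limma called the MiaPaCa-2 fall alone (-0.20 ± 0.09 in BxPC-3 (adjusted p = 0.0762), -0.96 ± 0.09 in MiaPaCa-2 (adjusted p = 3.02e-07) and 0.10 ± 0.09 [-0.02] in PANC-1 (adjusted p = 0.482)). The difference in response was -0.76 ± 0.13 (adjusted p = 0.00103) for MiaPaCa-2 minus BxPC-3 and 1.06 ± 0.13 (adjusted p = 2.67e-05) for PANC-1 minus MiaPaCa-2; the first was not called with TMM factors or on the ERCC scale, and the second was called on both.

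At the fork, the subunits of polymerase alpha lay on opposite sides of 0 in BxPC-3 and MiaPaCa-2 on the deposited scale, and both lay below 0 on the ERCC scale. POLA1, its catalytic subunit, stood at 78.4, 70.1 and 71.4 with THZ1, against 39.3, 34.99 and 37.6 with DMSO in BxPC-3. In MiaPaCa-2, POLA1 stood at 181, 191 and 187 with THZ1, against 105, 105 and 114 with DMSO. In PANC-1, POLA1 stood at 23.4, 30.5 and 24.4 with THZ1, against 15.5, 22.7 and 24.9 with DMSO. The value with THZ1 was near 2 times that with DMSO in BxPC-3, and limma gave 0.96 ± 0.13 in BxPC-3 (adjusted p = 1.4e-05), 0.78 ± 0.13 in MiaPaCa-2 (adjusted p = 0.000116) and 0.32 ± 0.13 [0.12] in PANC-1 (adjusted p = 0.195). POLA2, its regulatory subunit, stood at 45.2, 44.0 and 43.4 with THZ1, against 81.3, 81.8 and 81.0 with DMSO in BxPC-3. In MiaPaCa-2, POLA2 stood at 29.4, 29.4 and 30.4 with THZ1, against 38.3, 34.4 and 36.5 with DMSO. In PANC-1, POLA2 stood at 85.2, 77.9 and 86.04 with THZ1, against 122, 88.4 and 82.0 with DMSO. It fell in BxPC-3 and MiaPaCa-2 (-0.87 ± 0.11 in BxPC-3 (adjusted p = 4.01e-06), -0.28 ± 0.11 in MiaPaCa-2 (adjusted p = 0.0363) and -0.21 ± 0.11 [-0.04] in PANC-1 (adjusted p = 0.262), limma), and the response in BxPC-3 was exceeded by 0.58 ± 0.15 (adjusted p = 0.0175) in MiaPaCa-2 and by 0.66 ± 0.15 (adjusted p = 0.00282) in PANC-1. POLA1 on the ERCC scale was -0.21 in BxPC-3 and -0.50 in MiaPaCa-2, and POLA2 -2.03 and -1.54.

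The ratio of subunits within a library does not depend on any scale between libraries, and it differed between THZ1 and DMSO libraries in BxPC-3 and MiaPaCa-2. These pairs were chosen after their values had been seen and carry no test. The mean log2 ratio of reads, GINS2 over GINS1, was 0.58 with THZ1 and -1.37 with DMSO in BxPC-3, 0.65 and -0.84 in MiaPaCa-2, and -1.49 and -1.56 in PANC-1. GINS2 thus had fewer reads than GINS1 in all 6 DMSO libraries of BxPC-3 and MiaPaCa-2 and more in all 6 THZ1 libraries. For POLA1 over POLA2 it was 0.73 with THZ1 and -1.13 with DMSO in BxPC-3, 2.65 and 1.57 in MiaPaCa-2, and -1.68 and -2.22 in PANC-1. For RFC2 over RFC4, subunits of the clamp loader, it was 2.37 and 0.91 in BxPC-3, 0.75 and 0.04 in MiaPaCa-2, and 0.50 and 0.49 in PANC-1. Libraries with THZ1 and with DMSO did not overlap in BxPC-3 or MiaPaCa-2 for any of these ratios, and overlapped in PANC-1 for each of them. For GINS2 over GINS1 the PANC-1 overlap came from DMSO replicate 1 (-1.10). The PANC-1 THZ1 libraries (-1.47, -1.49 and -1.51) lay above the other DMSO libraries (-1.88 and -1.70). The other ratios overlapped in PANC-1 without that library too.

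**Figure D4:**
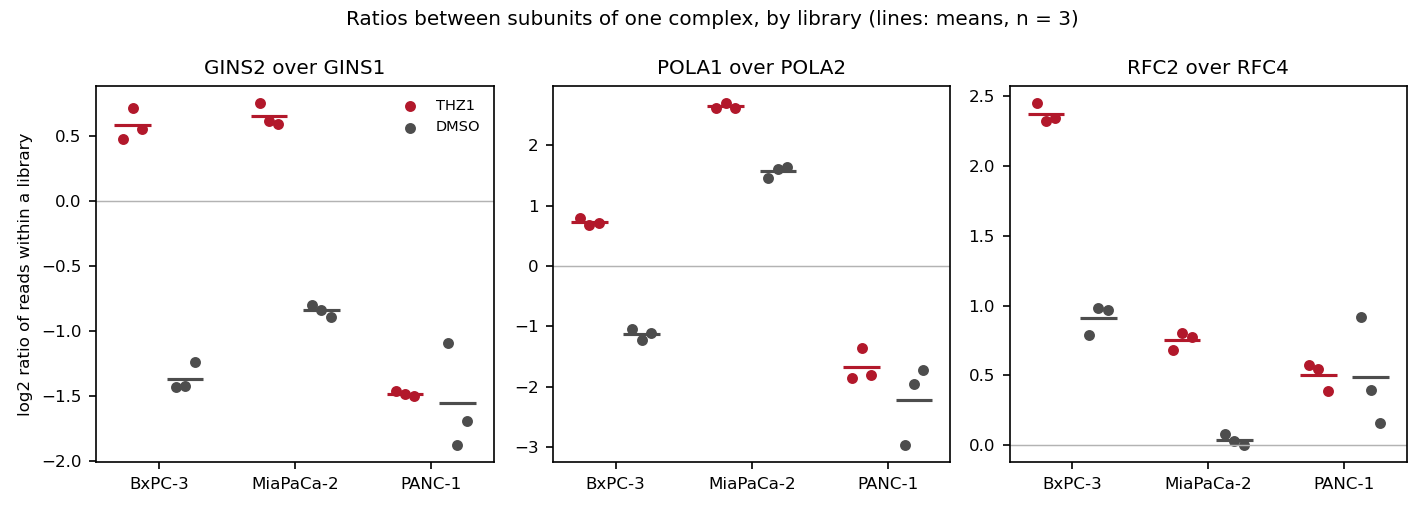
Log2 ratio of reads of GINS2 over GINS1, POLA1 over POLA2 and RFC2 over RFC4 in each library (points) with group means (lines, n = 3), THZ1 in red to the left of DMSO in grey. The ratios with THZ1 lie above those with DMSO in BxPC-3 and MiaPaCa-2, by 1.95 and 1.497 for GINS2 over GINS1, and overlap in PANC-1. For GINS2 over GINS1 the overlap in PANC-1 comes from DMSO replicate 1.

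Promoters are shown for 5 subunits of GINS and polymerase alpha, genes that moved apart and that each hold a spelling of the E2F site. RFC2 and RFC4, which moved apart in BxPC-3 too, held no match in their promoter windows and are not shown. Each line runs from 150 bases before to 40 bases from the annotated start, in the direction of the gene, from RefSeq on GRCh38.p14, with a match to TTTCCCGC, TTTGGCGC, TTTCGCGC or TTTGCCGC on either strand in capitals.
GINS2 (chr16:85688915-85689104, minus strand): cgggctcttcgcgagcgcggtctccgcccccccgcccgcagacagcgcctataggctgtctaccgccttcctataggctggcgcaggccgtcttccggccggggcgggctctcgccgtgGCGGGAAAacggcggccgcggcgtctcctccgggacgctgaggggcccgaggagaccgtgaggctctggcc
GINS1 (chr20:25407523-25407712, plus strand): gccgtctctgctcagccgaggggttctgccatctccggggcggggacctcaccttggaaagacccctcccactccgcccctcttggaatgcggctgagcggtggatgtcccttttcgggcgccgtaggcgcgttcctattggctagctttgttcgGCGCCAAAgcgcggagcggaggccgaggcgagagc
GINS3 (chr16:58392321-58392510, plus strand): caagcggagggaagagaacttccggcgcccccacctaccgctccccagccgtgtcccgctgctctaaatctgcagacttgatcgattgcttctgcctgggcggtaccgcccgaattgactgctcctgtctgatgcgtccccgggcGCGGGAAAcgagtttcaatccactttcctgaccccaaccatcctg
POLA1 (chrX:24693768-24693957, plus strand): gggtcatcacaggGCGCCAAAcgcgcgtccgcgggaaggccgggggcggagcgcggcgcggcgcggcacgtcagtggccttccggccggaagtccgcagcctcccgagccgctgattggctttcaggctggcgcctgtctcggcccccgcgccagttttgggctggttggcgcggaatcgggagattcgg
POLA2 (chr11:65261812-65262001, plus strand): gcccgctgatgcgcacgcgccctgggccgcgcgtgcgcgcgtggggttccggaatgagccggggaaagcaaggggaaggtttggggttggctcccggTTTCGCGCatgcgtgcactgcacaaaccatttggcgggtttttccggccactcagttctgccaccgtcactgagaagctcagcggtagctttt
Of the 36 genes 32 had a promoter window of 300 bases in the table, and MCM4, MCM5, GINS4 and CCNE2 had no entry. A match lay in 20 of the 32, against 3.31% of the 35116 windows and 6.56% of the 9616 tested genes with a window; matches can overlap, TTTGGCGC with TTTCGCGC in MCM6 and TTTCGCGC on both strands in MCM2. A match was held by 9 of 13 genes called higher in both BxPC-3 and MiaPaCa-2 and by 4 of 5 called lower in both. A match describes letters in this window and says nothing of binding.

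Genes of the RFC clamp loader were called in both directions in BxPC-3 on the deposited scale. RFC2 stood at 84.3, 84.2 and 85.7 with THZ1, against 50.8, 56.8 and 56.3 with DMSO in BxPC-3. In MiaPaCa-2, RFC2 stood at 106, 102 and 101 with THZ1, against 66.6, 64.7 and 62.5 with DMSO. In PANC-1, RFC2 stood at 68.0, 56.4 and 61.6 with THZ1, against 78.6, 58.1 and 54.2 with DMSO. It rose on the deposited scale and with TMM factors in BxPC-3 and MiaPaCa-2 (0.63 ± 0.11 in BxPC-3 (adjusted p = 0.000132), 0.66 ± 0.11 in MiaPaCa-2 (adjusted p = 8.42e-05) and -0.02 ± 0.11 [0.14] in PANC-1 (adjusted p = 0.906), limma) and was below 0 on the ERCC scale (-0.55 and -0.61). RFC4 stood at 15.4, 16.9 and 16.9 with THZ1, against 29.5, 28.7 and 28.8 with DMSO in BxPC-3. In MiaPaCa-2, RFC4 stood at 66.4, 58.2 and 58.9 with THZ1, against 63.2, 63.3 and 62.6 with DMSO. In PANC-1, RFC4 stood at 45.6, 38.6 and 47.0 with THZ1, against 41.7, 44.1 and 48.5 with DMSO. It fell in BxPC-3 with no overlap and overlapped in the other lines (-0.79 ± 0.09 in BxPC-3 (adjusted p = 1.15e-06), -0.04 ± 0.09 in MiaPaCa-2 (adjusted p = 0.702) and -0.04 ± 0.09 [-0.08] in PANC-1 (adjusted p = 0.808), limma). The response in BxPC-3 was exceeded by 0.74 ± 0.13 (adjusted p = 0.000843) in MiaPaCa-2 and by 0.75 ± 0.13 (adjusted p = 0.000202) in PANC-1. RFC5 stood at 71.7, 73.6 and 67.3 with THZ1, against 58.3, 62.2 and 58.3 with DMSO in BxPC-3. In MiaPaCa-2, RFC5 stood at 47.1, 55.1 and 54.1 with THZ1, against 31.3, 32.7 and 30.8 with DMSO. In PANC-1, RFC5 stood at 27.5, 33.0 and 31.1 with THZ1, against 21.5, 28.7 and 28.6 with DMSO. It was called higher on the deposited scale in MiaPaCa-2 alone (0.25 ± 0.11 in BxPC-3 (adjusted p = 0.0582), 0.70 ± 0.11 in MiaPaCa-2 (adjusted p = 3.67e-05) and 0.22 ± 0.11 [0.09] in PANC-1 (adjusted p = 0.233), limma), with -0.56 there on the ERCC scale. RFC3 averaged 59.0 ± 2.62 with THZ1 and 40.8 ± 2.42 with DMSO in BxPC-3. In MiaPaCa-2 it averaged 99.4 ± 4.37 with THZ1 and 74.2 ± 0.122 with DMSO, and in PANC-1 32.5 ± 3.30 with THZ1 and 27.7 ± 10.1 with DMSO. RFC3 was called higher in BxPC-3 (log2 0.52 ± 0.18 (adjusted p = 0.0204), limma), with 0.14 by TMM factors and -0.64 on the ERCC scale.

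PCNA, the sliding clamp that RFC loads, stood at 394, 387 and 391 with THZ1, against 276, 289.9 and 271 with DMSO in BxPC-3. In MiaPaCa-2, PCNA stood at 308, 306 and 317 with THZ1, against 193, 193 and 188 with DMSO. In PANC-1, PCNA stood at 133, 132 and 135 with THZ1, against 98.8, 126 and 118 with DMSO. No THZ1 library overlapped a DMSO library of its line, and limma gave 0.48 ± 0.08 in BxPC-3 (adjusted p = 4.78e-05), 0.70 ± 0.08 in MiaPaCa-2 (adjusted p = 1.26e-06) and 0.22 ± 0.08 [0.12] in PANC-1 (adjusted p = 0.14); the ERCC values were -0.70, -0.59 and -0.06. POLE, the leading-strand polymerase, stood at 337, 345 and 369.7 with THZ1, against 202, 196 and 205 with DMSO in BxPC-3. In MiaPaCa-2, POLE stood at 252, 228 and 236 with THZ1, against 179.9, 180.3 and 169 with DMSO. In PANC-1, POLE stood at 199, 178 and 197 with THZ1, against 258, 180.5 and 172 with DMSO, the highest being DMSO replicate 1. It rose in BxPC-3 and MiaPaCa-2 on the deposited scale (0.80 ± 0.11 in BxPC-3 (adjusted p = 1.67e-05), 0.43 ± 0.11 in MiaPaCa-2 (adjusted p = 0.00426) and -0.07 ± 0.11 [0.12] in PANC-1 (adjusted p = 0.727), limma) and was -0.39 and -0.86 on the ERCC scale. Its partner POLE2 averaged 15.3 ± 1.47 with THZ1 and 19.3 ± 1.86 with DMSO in BxPC-3. In MiaPaCa-2 it averaged 15.2 ± 2.20 with THZ1 and 15.8 ± 0.791 with DMSO, and in PANC-1 13.9 ± 0.907 with THZ1 and 14.5 ± 1.60 with DMSO. POLE2 fell in BxPC-3 (log2 -0.32 ± 0.12 (adjusted p = 0.0266), limma).

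LIG1, the ligase that seals Okazaki fragments, stood at 167, 172 and 171 with THZ1, against 117, 119 and 124 with DMSO in BxPC-3. In MiaPaCa-2, LIG1 stood at 88.3, 78.8 and 81.0 with THZ1, against 60.2, 55.2 and 50.7 with DMSO. In PANC-1, LIG1 stood at 43.1, 36.4 and 46.7 with THZ1, against 53.2, 39.5 and 36.8 with DMSO. It rose on the deposited scale in BxPC-3 and MiaPaCa-2 (0.50 ± 0.12 in BxPC-3 (adjusted p = 0.00175), 0.57 ± 0.12 in MiaPaCa-2 (adjusted p = 0.000637) and -0.03 ± 0.12 [0.13] in PANC-1 (adjusted p = 0.9), limma) and was -0.68 and -0.70 on the ERCC scale. FEN1, the flap nuclease that acts before LIG1, averaged 120.4 ± 5.45 with THZ1 and 104 ± 1.32 with DMSO in BxPC-3. The MiaPaCa-2 averages of FEN1 were 73.0 ± 2.74 with THZ1 and 62.3 ± 2.51 with DMSO, and in PANC-1 83.2 ± 4.39 with THZ1 and 71.3 ± 13.2 with DMSO. Limma called FEN1 in no line (log2 0.21, 0.23 and 0.23 [0.08]; adjusted p = 0.0882, 0.0767 and 0.208).

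All 3 genes of nucleotide supply were called higher in BxPC-3 and MiaPaCa-2 on the deposited scale. With TMM factors all 3 lay above 0 in both lines, and TYMS alone was called. On the ERCC scale all 3 were below 0 in both lines. TYMS, which makes thymidylate and is the target of fluorouracil, stood at 43.3, 41.0 and 41.3 with THZ1, against 19.7, 21.8 and 21.4 with DMSO in BxPC-3. In MiaPaCa-2, TYMS stood at 92.1, 90.8 and 97.4 with THZ1, against 48.1, 46.9 and 51.4 with DMSO. In PANC-1, TYMS stood at 38.5, 36.8 and 39.4 with THZ1, against 31.7, 35.5 and 34.6 with DMSO. Its values with THZ1 were near 2 times those with DMSO in BxPC-3 and MiaPaCa-2 and higher without overlap in PANC-1; limma gave 0.97 ± 0.07 in BxPC-3 (adjusted p = 1.79e-08), 0.92 ± 0.07 in MiaPaCa-2 (adjusted p = 4.75e-08) and 0.17 ± 0.07 [0.12] in PANC-1 (adjusted p = 0.208). RRM2, the small subunit of ribonucleotide reductase, stood at 152, 152 and 149.6 with THZ1, against 112, 113 and 111 with DMSO in BxPC-3. In MiaPaCa-2, RRM2 stood at 599, 636 and 632 with THZ1, against 435, 439 and 442 with DMSO. In PANC-1, RRM2 stood at 414, 451 and 429 with THZ1, against 230.1, 419 and 425 with DMSO, the lowest being DMSO replicate 1. Limma gave 0.42 ± 0.16 in BxPC-3 (adjusted p = 0.0276), 0.50 ± 0.16 in MiaPaCa-2 (adjusted p = 0.0115) and 0.32 ± 0.16 [0.03] in PANC-1 (adjusted p = 0.233) for RRM2, and 0.87 ± 0.18 in BxPC-3 (adjusted p = 0.000561), 0.72 ± 0.18 in MiaPaCa-2 (adjusted p = 0.00294) and 0.45 ± 0.18 [0.11] in PANC-1 (adjusted p = 0.179) for RRM1, the large subunit. RRM1 averaged 193 ± 8.61 with THZ1 and 105 ± 2.61 with DMSO in BxPC-3. The MiaPaCa-2 averages of RRM1 were 197 ± 3.46 with THZ1 and 119 ± 3.31 with DMSO, and in PANC-1 183 ± 9.57 with THZ1 and 141 ± 49.9 with DMSO. The PANC-1 libraries of RRM1 were at 174, 193 and 182 with THZ1, against 83.3, 167 and 173 with DMSO, the lowest being DMSO replicate 1.

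None of the 4 genes of S phase entry was called higher in any line. On the deposited scale 2 were called lower in BxPC-3 and 3 in MiaPaCa-2, against 18.9% and 19.8% of all genes. All 4 were called lower in both lines with TMM factors, equal sums or ERCC scaling. Of all genes 29.9% and 26.6%, 43% and 43.1%, and 59.1% and 73.9% were called lower there. Those scales favoured falls in advance, so their agreement is no separate support. E2F1, the activator E2F best known for driving S phase genes, stood at 21.7, 24.8 and 24.1 with THZ1, against 42.2, 45.0 and 52.0 with DMSO in BxPC-3. In MiaPaCa-2, E2F1 stood at 76.8, 77.2 and 73.0 with THZ1, against 75.9, 75.0 and 75.4 with DMSO. In PANC-1, E2F1 stood at 90.7, 77.1 and 85.5 with THZ1, against 133, 90.8 and 87.0 with DMSO. It was near 0.5 of its DMSO level in BxPC-3 and overlapped its DMSO libraries in MiaPaCa-2; limma gave -0.95 ± 0.13 in BxPC-3 (adjusted p = 9.02e-06), 0.0039 ± 0.13 in MiaPaCa-2 (adjusted p = 0.983) and -0.27 ± 0.13 [-0.08] in PANC-1 (adjusted p = 0.23). The response of E2F1 in BxPC-3 was exceeded by 0.95 ± 0.18 (adjusted p = 0.00208) in MiaPaCa-2 and by 0.68 ± 0.18 (adjusted p = 0.00673) in PANC-1. E2F2, another activator, stood at 21.8, 22.4 and 24.1 with THZ1, against 33.1, 31.9 and 32.5 with DMSO in BxPC-3. In MiaPaCa-2, E2F2 stood at 13.2, 11.4 and 13.4 with THZ1, against 35.6, 33.6 and 32.2 with DMSO. In PANC-1, E2F2 stood at 15.8, 17.2 and 17.1 with THZ1, against 33.9, 18.6 and 16.6 with DMSO, the highest being DMSO replicate 1. It fell in BxPC-3 and more in MiaPaCa-2, where it had the lowest fold change of the 36 genes (-0.50 ± 0.17 in BxPC-3 (adjusted p = 0.0217), -1.35 ± 0.17 in MiaPaCa-2 (adjusted p = 6.37e-06) and -0.37 ± 0.17 [-0.07] in PANC-1 (adjusted p = 0.22), limma). MiaPaCa-2 minus BxPC-3 was -0.86 ± 0.25 (adjusted p = 0.0282), the opposite sign to E2F1, and both differences were called on the deposited scale, with TMM factors and on the ERCC scale.

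CCNE1 and CCNE2 encode cyclin E, the partner of CDK2 at the start of S phase. CCNE1 stood at 19.4, 20.1 and 22.9 with THZ1, against 22.9, 23.7 and 24.6 with DMSO in BxPC-3. In MiaPaCa-2, CCNE1 stood at 22.4, 19.6 and 17.995 with THZ1, against 28.8, 27.7 and 29.2 with DMSO. In PANC-1, CCNE1 stood at 25.7, 21.2 and 25.8 with THZ1, against 19.3, 23.8 and 22.4 with DMSO. Limma called the fall in MiaPaCa-2 alone on the deposited scale (-0.19 ± 0.11 in BxPC-3 (adjusted p = 0.153), -0.50 ± 0.11 in MiaPaCa-2 (adjusted p = 0.00098) and 0.15 ± 0.11 [0.06] in PANC-1 (adjusted p = 0.402)), and PANC-1 minus MiaPaCa-2 was 0.64 ± 0.15 (adjusted p = 0.00388). CCNE2 had the fewest reads that any member had in a library, though GINS3 was lower in every PANC-1 THZ1 library. CCNE2 stood at 5.69, 5.67 and 5.41 with THZ1, against 9.57, 7.62 and 6.45 with DMSO in BxPC-3. In MiaPaCa-2, CCNE2 stood at 2.75, 4.20 and 5.16 with THZ1, against 5.50, 6.14 and 7.84 with DMSO. In PANC-1, CCNE2 stood at 8.24, 11.5 and 8.81 with THZ1, against 4.74, 8.07 and 10.6 with DMSO. It fell in MiaPaCa-2 (-0.42 ± 0.23 in BxPC-3 (adjusted p = 0.136), -0.59 ± 0.23 in MiaPaCa-2 (adjusted p = 0.0394) and 0.31 ± 0.23 [0.03] in PANC-1 (adjusted p = 0.413), limma), and PANC-1 minus MiaPaCa-2 was 0.90 ± 0.33 (adjusted p = 0.0401), with an SE larger than that of any other member in these contrasts.

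CHAF1A, the large subunit of the chromatin assembly factor that deposits histones behind the fork, stood at 39.6, 43.2 and 40.8 with THZ1, against 86.5, 91.0 and 92.4 with DMSO in BxPC-3. In MiaPaCa-2, CHAF1A stood at 57.1, 62.1 and 56.7 with THZ1, against 97.7, 96.5 and 92.4 with DMSO. In PANC-1, CHAF1A stood at 52.7, 43.7 and 48.1 with THZ1, against 81.1, 54.3 and 49.4 with DMSO. It fell in BxPC-3 and MiaPaCa-2 with no overlap (-1.11 ± 0.13 in BxPC-3 (adjusted p = 2.23e-06), -0.70 ± 0.13 in MiaPaCa-2 (adjusted p = 0.000293) and -0.32 ± 0.13 [-0.11] in PANC-1 (adjusted p = 0.189), limma), and PANC-1 minus BxPC-3 was 0.79 ± 0.19 (adjusted p = 0.00308). UHRF1, which recruits the maintenance DNA methyltransferase to replicated DNA, stood at 106, 103 and 99.5 with THZ1, against 116, 117 and 125 with DMSO in BxPC-3. In MiaPaCa-2, UHRF1 stood at 209, 209.6 and 199 with THZ1, against 191, 195 and 191 with DMSO. In PANC-1, UHRF1 stood at 84.7, 84.0 and 79.4 with THZ1, against 48.9, 84.4 and 84.5 with DMSO. The THZ1 libraries were lower without overlap in BxPC-3 and higher without overlap in MiaPaCa-2, and with all libraries limma called neither (-0.22 ± 0.14 in BxPC-3 (adjusted p = 0.204), 0.10 ± 0.14 in MiaPaCa-2 (adjusted p = 0.576) and 0.23 ± 0.14 [-0.03] in PANC-1 (adjusted p = 0.329)). The SE of UHRF1 in each line takes in PANC-1 DMSO replicate 1 (48.9) through the shared spread. Without that library its SE in PANC-1 was 0.05.

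THZ1 and DMSO libraries did not overlap for 20 genes higher and 14 lower in BxPC-3, against 51.1% and 25% of all genes tested, and for 22 and 8 in MiaPaCa-2, against 47.6% and 26.2%. In PANC-1 they did not overlap for 6 genes higher, ORC1, MCM2, MCM4, PCNA, RRM1 and TYMS, and for 2 lower, GINS1 and GINS3, against 8.34% and 8.73%. At an unadjusted p under 0.05 limma had 11 of the 36 in PANC-1, against 22.2% of all genes. Without PANC-1 DMSO replicate 1 limma still called 1 gene lower there, GINS3, against 5.63% of all genes called higher and 1.35% lower, and the fold changes of the 36 lay between -0.42 and 0.18, with a median of 0.06. Without PANC-1 DMSO replicate 2 it called 2 of the 36, against 5.59% of all genes. Without PANC-1 DMSO replicate 3 it called 12, 6 higher and 6 lower, against 21.8% of all genes.

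The differences in response between lines were tested for all 36 genes. Between MiaPaCa-2 and BxPC-3 limma called 8, with ORC1, CDT1, GINS1, RFC4, POLA2 and E2F1 higher and MCM10 and E2F2 lower in MiaPaCa-2, against 6.14% and 7.66% of all genes. Without PANC-1 DMSO replicate 1, which enters the shared estimate of the spread, 11 and 5 were called, against 14.9% and 20.9% of all genes. Limma called 5 members without MiaPaCa-2 DMSO replicate 1, where it called 10.6% of all genes, and 4 without MiaPaCa-2 DMSO replicate 2, against 10.3%. It called 5 without MiaPaCa-2 THZ1 replicate 2, BxPC-3 THZ1 replicate 2 or BxPC-3 DMSO replicate 1, against 11.2%, 10.7% and 10.8% of all genes. With the 4 compared groups fitted alone it called 19, against 39.9% of all genes. CDT1, E2F1 and E2F2 were called one way on the deposited scale, with TMM factors and on the ERCC scale, where they were the 3 members called, against 7.77% of all genes. Between PANC-1 and BxPC-3 limma called 7 higher and 12 lower, against 11.9% and 30.8% of all genes, and between PANC-1 and MiaPaCa-2 5 and 12, against 11.6% and 27.4%. The lower ones are the genes that rose in the other line, among them MCM2, MCM5, MCM7, CDC45, GINS2, RFC2, POLE, LIG1 and TYMS in both contrasts. Scaled to ERCC reads, the counts were 18 higher and 0 lower against BxPC-3 and 19 and 0 against MiaPaCa-2, where 28.6% and 41.8% of all genes were called higher and 1.54% and 1.54% lower. Called higher on all 3 of these scales were ORC1, CDC6, GINS1, RFC4, POLA2, E2F1 and CHAF1A against BxPC-3, and MCM10, GINS1, CCNE1, CCNE2 and E2F2 against MiaPaCa-2. Against BxPC-3 the median difference over all genes was -0.32 on the deposited scale, 0.08 with TMM factors and 0.39 on the ERCC scale. Against MiaPaCa-2 it was -0.24, 0.03 and 0.59. The other scales thus favoured higher calls, so their agreement is no separate support. Without PANC-1 DMSO replicate 1 the counts on the deposited scale were 10 and 18 against BxPC-3 (17% and 39.8% of all genes) and 7 and 19 against MiaPaCa-2 (17.6% and 35.9%).

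With DMSO alone the set was lower in PANC-1 than in the other lines. Limma's F-test over the 3 DMSO groups called 31 of the 36, against 79.1% of all genes, and left out MCM5, RFC2, POLE, RRM1 and CCNE2. PANC-1 minus BxPC-3 was called higher for 4 genes, RFC4, RRM2, TYMS and E2F1, and lower for 23, against 33.7% and 25.4% of all genes. PANC-1 minus MiaPaCa-2 was called higher for POLA2 and E2F1 and lower for 25, against 28% and 32.8%. The median difference of the set was -0.47 and -0.44, against 0.12 and -0.03 over all genes. Without PANC-1 DMSO replicate 1 the counts were 7 and 24 against BxPC-3, where 37.1% and 33.2% of all genes were called, and 5 and 25 against MiaPaCa-2, where 29.6% and 42% were. They were 4 and 16, and 1 and 28, on the ERCC scale, where 34.1% and 19.6%, and 19.5% and 41.2%, of all genes were called. MiaPaCa-2 minus BxPC-3 was called higher for 15 and lower for 8, against 37.5% and 25.1% of all genes. With TMM factors these counts were 7 and 14, against 30.6% and 31.7%, and on the ERCC scale 20 and 3, against 49.9% and 15.3%.

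POLA1 with DMSO averaged 21.0 ± 4.94 in PANC-1, 108 ± 5.06 in MiaPaCa-2 and 37.3 ± 2.17 in BxPC-3, and limma put PANC-1 minus MiaPaCa-2 at -2.33 ± 0.13 (adjusted p = 1.94e-10). POLA2, its partner, averaged 97.3 ± 21.2 in PANC-1, 36.4 ± 1.96 in MiaPaCa-2 and 81.4 ± 0.397 in BxPC-3, and PANC-1 minus MiaPaCa-2 was 1.38 ± 0.11 (adjusted p = 1.09e-08) by limma, while PANC-1 minus BxPC-3, 0.23 ± 0.11 (adjusted p = 0.0745), was not called. RRM2 averaged 358 ± 111 in PANC-1, 438 ± 3.77 in MiaPaCa-2 and 112 ± 0.985 in BxPC-3, and LIG1 43.2 ± 8.79, 55.4 ± 4.71 and 119.9 ± 3.52 (SD, n = 3 each). Per kilobase of exons, a scale that allows genes to be compared, the highest levels with DMSO were those of PCNA in BxPC-3 (189.7 ± 6.62) and MiaPaCa-2 (130.0 ± 1.93) and of MCM7 in PANC-1 (99.8 ± 16.7). In PANC-1 PCNA was at 77.8 ± 9.64 and RRM2 at 92.8 ± 28.7. The mean of MCM7 exceeded that of RRM2 through PANC-1 DMSO replicate 1, where MCM7 was at its highest (118) and RRM2 at its lowest (59.6). In the other PANC-1 DMSO libraries RRM2 lay above MCM7. MCM7 lay above PCNA in each PANC-1 DMSO library, and these orders were not tested. The lowest levels with DMSO were those of CCNE2 in BxPC-3 (2.30 ± 0.46) and MiaPaCa-2 (1.89 ± 0.352) and of GINS4 in PANC-1 (2.25 ± 0.187), there beside CCNE2 at 2.27 ± 0.853.

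**Figure D5:**
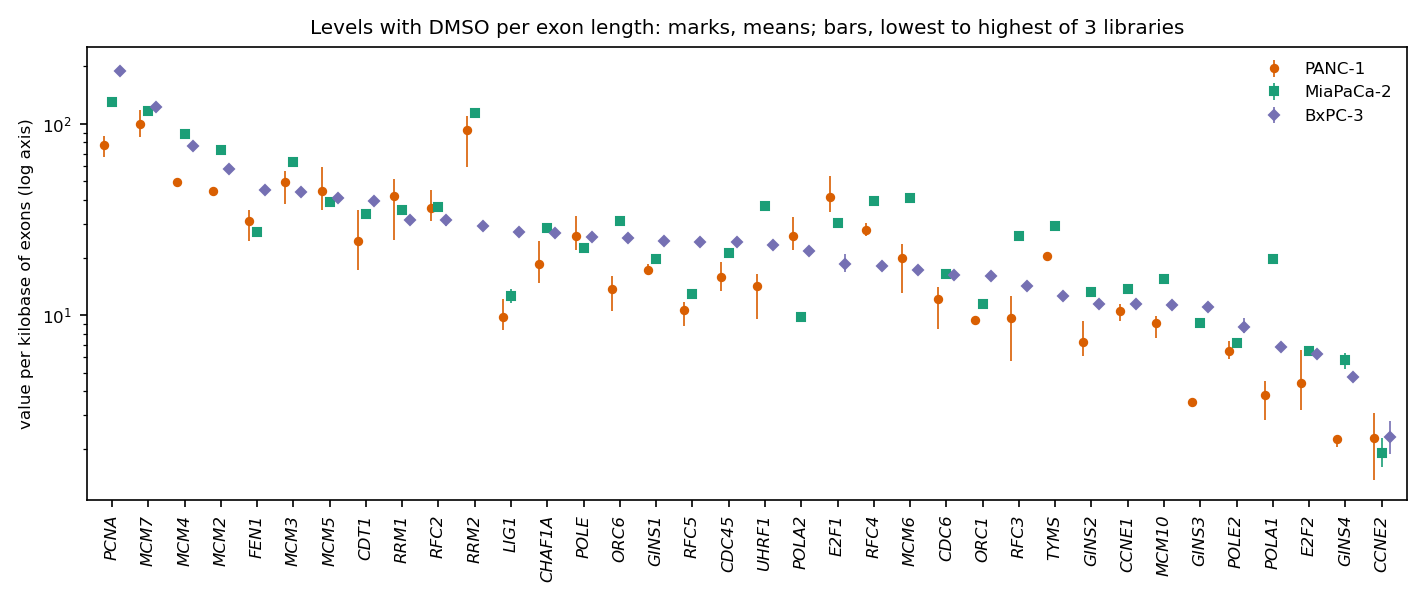
Level of each of the 36 genes with DMSO, per kilobase of exons on a log axis, in PANC-1, MiaPaCa-2 and BxPC-3; marks are means and bars run from the lowest to the highest of 3 libraries, with genes in order of their level in BxPC-3. PANC-1 lies below the other lines for most genes. Its mean is the highest of the lines for E2F1, MCM5, POLA2, POLE and RRM1, of which limma called E2F1 higher than in both other lines. Without PANC-1 DMSO replicate 1, PANC-1 minus BxPC-3 was -0.12 for MCM5, not called, and -0.19 for POLE, called lower. RRM1 was then called higher than in BxPC-3 (0.69) and MiaPaCa-2 (0.50), as was E2F1 (0.93 and 0.23).

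Other replication genes, 71 of them outside the set and all tested, also went both ways on the deposited scale. Limma called 28 higher and 23 lower in BxPC-3 and 32 and 19 in MiaPaCa-2 on the deposited scale, beside the 40% and 18.9%, and 36.5% and 19.8%, of all genes given above. On the ERCC scale none was called higher in either line, against 1.28% and 1.36% of all genes. There 60 and 65 were called lower, against 59.1% and 73.9% of all genes. In PANC-1 limma called 0 of the 71, with 6 called without PANC-1 DMSO replicate 1, 4 without DMSO replicate 2 and 12 without DMSO replicate 3. In those fits 6.98%, 5.59% and 21.8% of all genes were called. The lowest mean change over the lines was that of E2F8, a repressor E2F, with -1.74 ± 0.20 (adjusted p = 1.75e-06) in BxPC-3, -2.05 ± 0.20 (adjusted p = 3.97e-07) in MiaPaCa-2 and -0.23 ± 0.20 (adjusted p = 0.473) in PANC-1 by limma. Next was DBF4B, a regulator of the CDC7 kinase, with -1.18 ± 0.18 (adjusted p = 3.69e-05), -1.21 ± 0.18 (adjusted p = 3.37e-05) and -0.49 ± 0.18 (adjusted p = 0.157). POLD3, a subunit of polymerase delta, followed with -1.499 ± 0.09 (adjusted p = 1.6e-09), -1.17 ± 0.09 (adjusted p = 3.41e-08) and -0.14 ± 0.09 (adjusted p = 0.348). The highest was that of POLE4, a small subunit of polymerase epsilon, with 1.40 ± 0.15 (adjusted p = 9.16e-07), 1.08 ± 0.15 (adjusted p = 1.93e-05) and 0.11 ± 0.15 (adjusted p = 0.674). DUT, the dUTPase, followed with 1.10 ± 0.06 (adjusted p = 1.21e-09), 1.015 ± 0.06 (adjusted p = 4.6e-09) and 0.19 ± 0.06 (adjusted p = 0.132). Next was POLD2, another polymerase delta subunit, with 1.10 ± 0.15 (adjusted p = 1.14e-05), 1.05 ± 0.15 (adjusted p = 2.2e-05) and -0.03 ± 0.15 (adjusted p = 0.899). POLE4 on the ERCC scale was 0.23 in BxPC-3 and -0.17 in MiaPaCa-2, and POLD3 -2.59 and -2.39.

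Exon bases of 15 of the 36 genes overlap another gene in GENCODE v29, so some of their reads may belong to the neighbour: MCM2, MCM7, GINS2, GINS3, GINS4, RFC4, RFC5, POLA2, FEN1, LIG1, RRM1, RRM2, TYMS, CCNE2 and CHAF1A. The libraries are stranded, per the labels, and whether the counting used the strand is not given in the sources used here. TYMS overlaps ENOSF1, MCM7 overlaps AP4M1 and RFC4 overlaps EIF4A2, each on the opposite strand. POLA2 overlaps AP000944.2, FEN1 overlaps FADS2 and RRM2 overlaps AC007240.1 on the same strand, which counting by strand would not separate.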

How the data were processed

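RNA was isolated from 3 cell lines after 6 h with THZ1 at 100 nM or DMSO, ERCC transcripts were added to the extracted RNA, and stranded libraries of polyadenylated RNA were sequenced, per the labels' protocols. STAR and the build hg19 are named in the submitters' processing notes; they name no counting program or annotation. The deposited table holds a signal per gene and library. Every deposited signal, times 1 whole number for its library, was within 0.001 of a whole count (100% of values), so reads could be recovered; what the divisor stands for is not stated. The authors' deposited log2 mean ratios and their SD score were not used. Because the unit was not a raw count, limma on log2 values was the main test, and count tests on recovered reads were alternatives.

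Values were multiplied by 17.6795 to bring the mean library to 1e+06. Genes at 1 or more in at least 3 libraries were kept (15354), log2(value + 1) was fitted with limma 3.58.1 in R 4.3.3 over all 6 groups (residual df 12), and p-values were adjusted by Benjamini-Hochberg over all genes tested, with a threshold of 0.05. Fold changes of low genes are understated by the pseudocount of 1. Response differences are interaction contrasts. Alternatives were ERCC, equal-sum, TMM and DESeq2 scaling, no filter or a filter of 5, pseudocounts of 0.5 and 5, edgeR 4.0.16 and DESeq2 1.42.0 on recovered reads, a replicate block, the compared groups alone, and each library left out. Levels per kilobase, subunit ratios and promoter letters were added after seeing the data. Members and gene lists were chosen with earlier results of these data known. All members are described; those most changed are given in every library. Dates stood in place of 22 gene names and were left as they are. The fit was tested on simulated data.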

Additional observations from a re-analysis of the deposited data

Results flagged for a closer look

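The response to THZ1 differed between MiaPaCa-2 and BxPC-3 by limma's interaction test (log2, MiaPaCa-2 minus BxPC-3) for ORC1 (0.39), CDT1 (0.96), MCM10 (-0.76), GINS1 (0.40), RFC4 (0.74), POLA2 (0.58), E2F1 (0.95) and E2F2 (-0.86). Called on the deposited, TMM and ERCC scales alike, the response in PANC-1 exceeded that in BxPC-3 for ORC1 (0.31), CDC6 (0.53), GINS1 (1.05), RFC4 (0.75), POLA2 (0.66), E2F1 (0.68) and CHAF1A (0.79). On the same scales the response in PANC-1 exceeded that in MiaPaCa-2 for MCM10 (1.06), GINS1 (0.65), CCNE1 (0.64), CCNE2 (0.90) and E2F2 (0.98). Of the first list CDT1, E2F1 and E2F2 were also called with TMM factors and on the ERCC scale. On the ERCC scale limma did not call ORC1 (adjusted p = 0.58), MCM10 (adjusted p = 0.063), GINS1 (adjusted p = 0.584), RFC4 (adjusted p = 0.117) and POLA2 (adjusted p = 0.186), and with TMM factors it did not call MCM10 (adjusted p = 0.0632). Both PANC-1 contrasts use the same PANC-1 libraries. In both, the median over all genes was higher with TMM factors and on the ERCC scale than on the deposited scale. Higher calls were thus favoured there, and being called on all these scales is no separate support.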

How the results depend on the processing

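Counts of genes that limma called in either direction stayed within 1.5 times of those on the deposited scale in most settings, other than those that follow; the counts in each direction moved with the scale, as given above for TMM factors, equal sums and ERCC reads. The cause was not tested for any. Of the 36 genes 1 was called in PANC-1, against 6 on the ERCC scale, and 0 with TMM factors, DESeq2 size factors, no filter, edgeR with TMM, edgeR with the deposited divisors, the replicate block or the compared groups alone. For responses of MiaPaCa-2 minus BxPC-3 the 8 calls became 3 on the ERCC scale and 19 with the compared groups alone. All genes called were 13.8%, 7.77% and 39.9% in these fits. Of the 71 other replication genes 0 were called in PANC-1, against 8 on the ERCC scale, where 18.4% of all genes were called. With DESeq2 3 were called, a count that stands without that share. Leaving out each library in turn gave these ranges: 23 to 34 for members called in BxPC-3, 22 to 29 for members called in MiaPaCa-2, 0 to 12 for members called in PANC-1, 4 to 16 for members whose response differs, MiaPaCa-2 minus BxPC-3, 16 to 28 for members whose response differs, PANC-1 minus BxPC-3, 15 to 26 for members whose response differs, PANC-1 minus MiaPaCa-2, 29 to 34 for members that differ among the DMSO groups, 47 to 59 for other replication genes called in BxPC-3, 46 to 62 for other replication genes called in MiaPaCa-2, 0 to 12 for other replication genes called in PANC-1, 1.12 to 1.24 for ERCC sum by group, BxPC-3, 1.15 to 1.38 for ERCC sum by group, MiaPaCa-2, 0.18 to 0.43 for ERCC sum by group, PANC-1.

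With the replicate number as a block, limma gave 27 for members called in BxPC-3, 25 for members called in MiaPaCa-2, 0 for members called in PANC-1, 9 for members whose response differs, MiaPaCa-2 minus BxPC-3, 17 for members whose response differs, PANC-1 minus BxPC-3, 17 for members whose response differs, PANC-1 minus MiaPaCa-2, 31 for members that differ among the DMSO groups, 51 for other replication genes called in BxPC-3, 52 for other replication genes called in MiaPaCa-2, 0 for other replication genes called in PANC-1. The share of all genes called moved with the fit too. In BxPC-3 it was 59% with all libraries and 73.8% without PANC-1 DMSO replicate 1. The counts with a block, and the ranges with a library left out, stand without that share and are no result on the members. Libraries of the same line and number had deviations that correlated between -0.0315 and 0.455, so the numbers were not taken as pairing the samples.

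On the ERCC scale the sign in BxPC-3 turned for ORC6 (-1.02), MCM2 (-0.23), MCM3 (-1.11), MCM4 (-0.58), MCM5 (-0.20), MCM6 (-0.49), MCM7 (-0.35), CDC45 (-0.68), GINS2 (-0.42), GINS4 (-0.72), PCNA (-0.70), RFC2 (-0.55), RFC3 (-0.64), RFC5 (-0.93), POLA1 (-0.21), POLE (-0.39), FEN1 (-0.97), LIG1 (-0.68), RRM1 (-0.31), RRM2 (-0.76) and TYMS (-0.19). In MiaPaCa-2 it turned likewise for ORC1 (-1.07), ORC6 (-1.06), CDT1 (-1.22), MCM2 (-0.45), MCM3 (-0.96), MCM4 (-0.63), MCM5 (-0.57), MCM6 (-0.65), MCM7 (-0.34), CDC45 (-0.78), GINS2 (-0.57), GINS4 (-1.22), PCNA (-0.59), RFC2 (-0.61), RFC3 (-0.86), RFC5 (-0.56), POLA1 (-0.50), POLE (-0.86), FEN1 (-1.05), LIG1 (-0.70), RRM1 (-0.57), RRM2 (-0.79), TYMS (-0.35), E2F1 (-1.27) and UHRF1 (-1.19). With equal sums the sign in BxPC-3 turned for ORC6 in BxPC-3 (-0.57), MCM3 in BxPC-3 (-0.66), MCM4 in BxPC-3 (-0.12), MCM6 in BxPC-3 (-0.0357), CDC45 in BxPC-3 (-0.23), GINS4 in BxPC-3 (-0.28), PCNA in BxPC-3 (-0.25), RFC2 in BxPC-3 (-0.0959), RFC3 in BxPC-3 (-0.19), RFC5 in BxPC-3 (-0.47), FEN1 in BxPC-3 (-0.51), LIG1 in BxPC-3 (-0.23) and RRM2 in BxPC-3 (-0.30). In MiaPaCa-2 it turned likewise for ORC1 in MiaPaCa-2 (-0.44), ORC6 in MiaPaCa-2 (-0.43), CDT1 in MiaPaCa-2 (-0.58), MCM3 in MiaPaCa-2 (-0.31), MCM6 in MiaPaCa-2 (-0.00478), CDC45 in MiaPaCa-2 (-0.15), GINS4 in MiaPaCa-2 (-0.60), POLE in MiaPaCa-2 (-0.22), FEN1 in MiaPaCa-2 (-0.41), LIG1 in MiaPaCa-2 (-0.0678), RRM2 in MiaPaCa-2 (-0.15), E2F1 in MiaPaCa-2 (-0.64) and UHRF1 in MiaPaCa-2 (-0.55). With TMM factors the sign in MiaPaCa-2 turned for E2F1 (-0.23). These values were called on the deposited scale, on the other one, or on both. The sign also turned, with no call on either scale, with TMM factors for ORC6, MCM3, RFC5 and FEN1 in BxPC-3, for ORC1, ORC6, CDT1, GINS4, FEN1 and UHRF1 in MiaPaCa-2 and for MCM5, CDC45, GINS2, RFC2, RFC4, POLE, POLE2 and LIG1 in PANC-1. It did so with equal sums for RFC3 in MiaPaCa-2, and on the ERCC scale for 14 of the 36 genes in PANC-1. CCNE2 had the fewest reads that any member had in a single library.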

Other observations

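Across the 36 genes the log2 fold changes of MiaPaCa-2 and BxPC-3 had a Pearson r of 0.80 and a Spearman rho of 0.89, against 0.77 in Pearson's r over all 15354 genes tested. For PANC-1 and BxPC-3 the Pearson r was 0.55 over the 36 genes and 0.34 over all genes, and for PANC-1 and MiaPaCa-2 it was 0.48 and 0.28. These are descriptions across genes, which share libraries and are not independent replicates.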
